A study of Homo sapiens with 9 samples.

Results

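SW1353 cells exposed to interleukin-1β (IL-1β) were compared with untreated SW1353 cells across 11924 genes. These were the genes, out of 19389 in the deposited table, with a normalised expression value of at least 1 in at least 3 of the 9 libraries of the study. SW1353 is an established human chondrosarcoma line that is widely used in place of cultured articular chondrocytes. The untreated group held 3 libraries of cells that received no cytokine. The IL-1β group held 3 libraries of cells that were plated for 24 h and then kept with 20 ng/mL IL-1β for 20 h, without PBSL, the agent of the study's other treated group. That group, in which PBSL was given 2 h before the same IL-1β exposure at a dose the labels do not tie to these libraries, also held 3 libraries and entered the filter on low values and the estimate of the spread between libraries. All groups were grown in the same serum-containing medium. The values came from 1 cell line, from a time point of 20 h and from cultures with no immune cells added, which limits them as a model of a joint. Nothing in the labels says that replicate libraries came from separate cultures, so p-values measure only the spread between these libraries.

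The labelled cell type was checked against marker genes. SOX9, the master transcription factor of cartilage, was present at 12 ± 0.68 (SD, n = 3) in untreated cells, but the cartilage collagens COL2A1 and COL9A1 were at or near 0, with highest values of 0.027 and 0.013 in any of the 6 libraries. The mesenchymal genes VIM and COL1A1 stood at 3149 ± 133 and 1209 ± 51.2, but THY1 did not exceed 0.101. After IL-1β COL1A1 was higher, PDGFRA, PDGFRB and S100A4 were lower, and VIM, COL1A2 and COL3A1 were not called. The 6 endothelial markers summed to between 0.743 and 1.11 in every library, and the leukocyte marker PTPRC did not exceed 0.393. The 8 lymphocyte markers summed to between 9.29 and 10.2 in untreated cells and between 9.62 and 10.4 after IL-1β, most of it CD3D at 6.3 and 7.42 and CD4 at 2.03 and 1.63. Neither was called, with a limma adjusted p of 0.0534 for CD3D that was 0.0363 without untreated replicate 1. The lymphocyte marker CD3E was lower, from 1.17 to 0.733. The summed macrophage markers moved with the treatment, from 73.1 to 80.5 in untreated cells and from 101 to 104 after IL-1β, and nearly all of that sum was the lysosomal protein CD68, while CSF1R rose from 2.81 to 3.78. Summed epithelial markers went the other way, from 138 to 156 down to 76.9 to 78.5, almost all of it KRT18 and KRT8. The epithelial marker CLDN4 rose, from 1.67 to 4.39. The part of these markers in the results was not tested.

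IL-1β is a cytokine made in inflamed joints that binds the receptor pair IL1R1 and IL1RAP on connective tissue cells. Its signal runs through MYD88 and IRAK kinases to the transcription factor NF-κB and to the kinases that activate AP-1, and these switch on cytokines, chemokines and matrix-degrading enzymes. In chondrocytes it is known as a catabolic signal: it raises collagenases and lowers the synthesis of cartilage matrix. The receptor genes were measured here before and after exposure. IL1R1 was at 14.7 ± 1.51 in untreated cells and 15.9 ± 0.806 after IL-1β and was not called different (limma adjusted p = 0.397), and IL1RAP rose from 5.76 ± 0.0777 to 9.60 ± 0.154.

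The 6 libraries were alike in their totals. The summed values lay between 523758 and 552657, and 15882 to 16137 genes had a value above 0. The unit of the deposited values is not named in the sources used here. They were treated as normalised for depth and gene length, and each comparison of levels between genes rests on that. The number of reads behind them is unknown. Untreated replicate 1 stood apart in a few genes: its value + 1 was at least 2-fold above both other untreated libraries in 13 genes, against 3 and 5 such genes in the other untreated libraries and 1 or 2 in the IL-1β libraries. These included secreted defence genes described with the acute phase genes, where values without that library are given. All log2 changes below are differences of group means on the log2(value + 1) scale, given ± the standard error of the fit. That error pools the spread of all 3 groups, so it can reflect the PBSL libraries. For CCND1 the SD of the values was 0.589 in untreated cells, 1.21 after IL-1β and 15.6 with PBSL and IL-1β. The log2(value + 1) scale is used because the values are normalised signals. This scale understates the change of genes with low values. A gene was called at a Benjamini-Hochberg adjusted p below 0.05 over the 11924 genes, and rose, fell, higher and lower refer to called genes. In bulk RNA a change in the share of cells that express a gene and a change in RNA per cell cannot be told apart.

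IL-1β moved a large share of the expressed genes by small amounts, and a small set of genes by very large amounts in one direction. Of the 11924 genes, 3831 (32.1%) were called: 1928 (16.2%) were higher and 1903 (16%) were lower. The counts of called genes given below for each list are to be read against these shares. The typical change was small, with a median log2 change of 0.38 among the higher genes and -0.35 among the lower genes, and 2952 of the called genes (77.1%) changed by less than 1.5-fold. The balance disappeared as the size of the change grew. At 2-fold or more, 266 genes (2.23%) were higher and 65 (0.545%) were lower, and with a pseudocount of 0.1 in place of 1 these counts were 345 and 149. At 4-fold or more the counts were 79 and 3, and at 8-fold or more they were 45 and 0. Untreated and IL-1β values did not overlap in 6294 genes (52.8%), which was more than the number called. The plot of untreated against IL-1β levels shows this asymmetry.

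**Figure D1:**
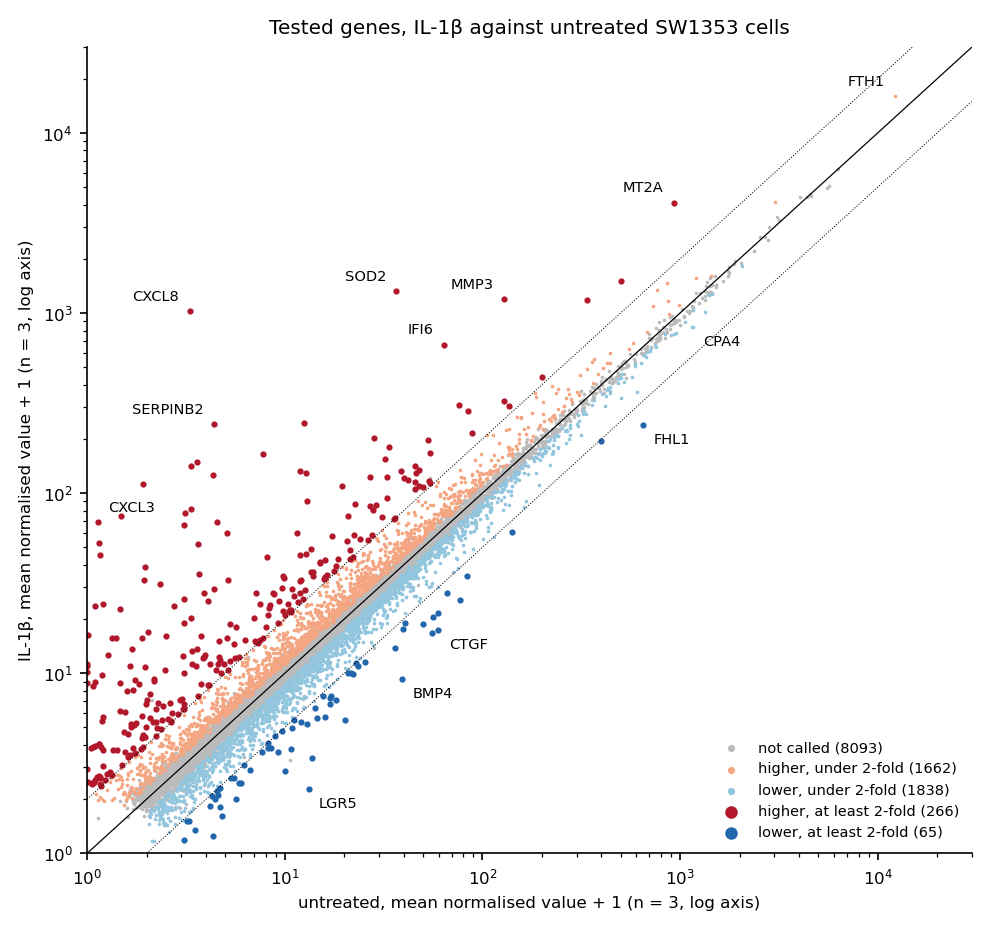
Mean normalised value + 1 of each tested gene in untreated cells (horizontal, log axis) and after IL-1β (vertical, log axis), n = 3 libraries each, with the line of equality and dotted lines at 2-fold. The 266 genes at least 2-fold higher fan out far above the upper dotted line, whereas the 65 genes at least 2-fold lower stay close to the lower one.

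Many of the large increases were genes that untreated cells hardly expressed. Among the 79 genes at least 4-fold higher, 33 had an untreated mean below 1 and 15 had one of at least 10. Together the 266 genes at least 2-fold higher made up 0.855, 0.912 and 0.913% of the summed value in the untreated libraries and 3.94, 3.9 and 3.93% after IL-1β. The 65 genes at least 2-fold lower went from between 0.426 and 0.444% to between 0.161 and 0.165%. Genes whose 3 untreated values were all below 0.1 and whose 3 IL-1β values were all at least 1 numbered 9, and there was none of the reverse kind. A total of 156 genes passed the filter although all 3 untreated values were below 1, so they had to be higher in a treated group, and 117 of these were called higher.

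**Figure D2:**
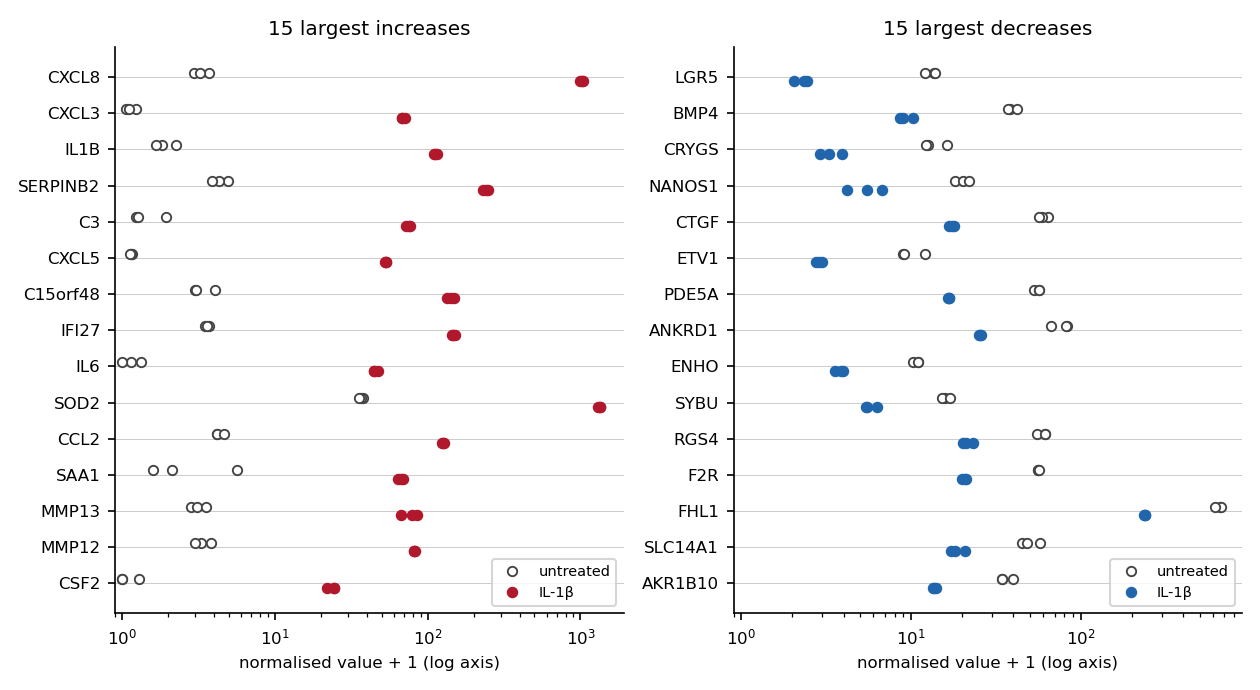
Normalised value + 1 (log axis) in each of the 3 untreated libraries (open circles) and the 3 IL-1β libraries (filled circles) for the 15 largest increases and the 15 largest decreases among genes whose higher group averaged 5 or more. The groups do not overlap in any of the 30 genes, which the choice of genes required, and the gaps on the left are wider than those on the right.

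The neutrophil-attracting chemokines that carry a Glu-Leu-Arg (ELR) motif gave the largest increase. CXCL8, which draws neutrophils through CXCR1 and CXCR2, read 2.73, 1.94 and 2.22 in the untreated libraries and 994, 1024 and 1044 after IL-1β. This is a shift from a trace transcript to the level of abundant structural genes, with a log2 change of 8.28 ± 0.073 (limma adjusted p = 6.07e-15). CXCL3 read 0.226, 0.06 and 0.118 without cytokine and 67.4, 67.1 and 69.9 with it. CXCL5 went from 0.145 ± 0.0189 to 52.0 ± 0.0733. CXCL6, a close paralog of CXCL5 on the same chromosome, reached only 1.61 ± 0.585 from 0.159 ± 0.276. All 5 tested genes of this list rose, with a median log2 change of 5.53 against -0.005 over all tested genes. Of these 5, 3 had untreated values that were all below 1 and passed the filter only through treated libraries. The fifth, CXCL1, named after its values were seen, went only from 0.743 to 2.42, and CXCL2, below the filter, did not exceed 0.105. These genes are close paralogs, and how shared reads were counted is not given in the sources used here, so their relative levels are uncertain.

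NF-κB binds short elements upstream of such genes, so the promoters were searched for the letters GGANTTTCC on either strand. Promoters are 300-base windows from RefSeq on GRCh38.p14, from 250 bases before to 50 after the annotated start. The windows below hold the match in capitals with up to 15 bases on each side, written 5′ to 3′ on the gene's strand. They are shown for 4 neutrophil-attracting chemokine genes and for IL6, all of which rose.

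CXCL8 (chr4:73740463-73740501, + strand): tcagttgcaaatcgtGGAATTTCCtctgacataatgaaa
CXCL3 (chr4:74038744-74038782, - strand): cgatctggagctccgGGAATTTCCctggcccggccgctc
CXCL5 (chr4:73998744-73998782, - strand): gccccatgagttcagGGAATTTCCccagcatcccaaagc
CXCL6 (chr4:73836574-73836612, + strand): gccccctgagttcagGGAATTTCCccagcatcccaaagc
IL6 (chr7:22727113-22727151, + strand): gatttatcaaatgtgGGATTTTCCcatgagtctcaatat

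The match lay 91 bases before the start in CXCL8, 78 in CXCL3, 90 in CXCL5, 89 in CXCL6 and 72 in IL6. CXCL5 and CXCL6 shared 38 of the 39 bases printed, yet their IL-1β levels were 52.0 and 1.61. Across all 9518 tested genes with a promoter sequence, 156 (1.64%) held this motif. It was found in 12 of the 50 promoters (24%) of genes at least 4-fold higher, in 23 of 192 (12%) of genes at least 2-fold higher, and in 0 of 53 of genes at least 2-fold lower. A second motif, the AP-1 letters TGANTCA, was in 4.65% of all promoters, in 20% of those of genes at least 4-fold higher, in 12% of those of genes at least 2-fold higher and in 13.2% of those of genes at least 2-fold lower. The core of the metal response element, TGCNCNC, was in 63.6% of all promoters, in 58% of those of genes at least 4-fold higher, in 61.5% at 2-fold higher and in 60.4% at 2-fold lower. A match describes the letters of the window and is no evidence of binding.

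Chemokines for monocytes and lymphocytes also rose: 10 of 13 tested members were higher and 2 were lower, and 7 of the 13 had passed the filter only through treated libraries. CCL2, the main monocyte attractant, read 3.17, 3.15 and 3.65 in untreated cells and 125, 128 and 122 after IL-1β, a log2 change of 4.87 ± 0.071 (limma adjusted p = 3.96e-13). CCL7, its neighbour in the genome with a similar role, went from 11.5 ± 2.58 to 243 ± 9.23 after IL-1β, a level second to CXCL8 among the listed chemokines. CCL3, CCL4 and CXCL10 were listed at 0 in all 3 untreated libraries and reached 10.3 ± 1.25, 1.93 and 7.78 ± 1.34. CXCL10, a T-cell attractant, is known to be induced by interferons as well as by NF-κB.

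The list of IL-6 family and colony-stimulating cytokines also holds their receptors and SOCS genes, and 17 of its 24 tested genes were higher and 3 lower, with a median log2 change of 0.85. Of these 24, 4 had untreated values that were all below 1 and passed the filter only through treated libraries. The 3 lower genes, named after their values were seen, all encode receptors: LIFR at -0.47, IL11RA at -0.36 and IL6R at -0.34 on the log2 scale. Other receptor genes of the list, also named after their values were seen, rose: IL15RA at 1.43, IL6ST at 0.89, OSMR at 0.86 and IL4R at 0.61. IL7R was not called. The call of IL11RA was lost without IL-1β replicate 1 (limma adjusted p = 0.0559) and without untreated replicate 3 (0.0519). IL6, the driver of the acute phase response, read 0.34, 0.14 and 0 before and 43.3, 43.8 and 46.6 after IL-1β. CSF2, which supports macrophages and granulocytes, went from 0, 0 and 0.289 to 20.9, 23.4 and 23.5. CSF3, the granulocyte factor, went from 0.0137 ± 0.0237 to 15.4 ± 0.819. IL32, a cytokine first described in lymphocytes, rose from 6.76 ± 0.171 to 163 ± 11.4, the highest level in the list. TNF was below the filter and was not tested, with 0.052, 0 and 0 in untreated cells and 0.478, 0.716 and 0.613 after IL-1β.

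Neighbouring tested genes of the IL-1 family on chromosome 2 rose. IL1B itself read 0.824, 1.26 and 0.674 in untreated cells and 108, 111 and 115 after exposure to the protein it encodes, a log2 change of 5.88 ± 0.1 (limma adjusted p = 1.91e-12). IL1RN, the receptor antagonist that blocks IL-1, went from 0.469 ± 0.0946 to 7.78 ± 1.05. IL36G, an epithelial relative of IL-1, went from 0.207 ± 0.167 to 23.2 ± 0.887. IL1A, IL36B and IL36RN rose as well. These 6 were consecutive tested genes within 360 kb (chr2:112773915-113134016, GENCODE 29 on GRCh38), and the only other gene of the family list at 2-fold or more was IRAK2, a kinase of the receptor complex, at 1.09 before and 6.69 after IL-1β. Of the 15 tested members of the list 9 rose and none fell, and 6 were not called, including IRAK1 (79.1 to 71.6). In this list 3 members had passed the filter only through treated libraries.

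Such runs were sought over the whole genome. Runs of 3 or more consecutive tested genes that changed at least 2-fold in the same direction numbered 14, and 13 of them were higher. More genes were higher than lower at this size, 266 against 65. Genes below the filter were left out of the order, so a run can pass over hardly expressed genes that did not respond. Family members left out in this way included IL37, at 0.27 and 0.282, and MMP8, MMP20 and MMP27. The metalloproteinase run of 6 genes spanned 435 kb (chr11:102520508-102955734), and the metallothionein run of 5 genes spanned 76 kb (chr16:56608199-56684196). Others held CCL2, CCL7, CCL8 and CCL1, the serum amyloid genes SAA2 and SAA1, the interferon-induced GBP, IFIT and OAS families, and SERPINA6, SERPINA1 and SERPINA9. The lower run was PADI2, PADI1 and PADI3 (chr1:17066761-17284233), which encode enzymes that convert arginine to citrulline in proteins. PADI2 read 3.45, 2.96 and 3.61 untreated and 0.207, 0.258 and 0.257 after IL-1β. PADI3 went from 12 ± 1.26 to 4.25 ± 0.168.

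The components of NF-κB changed unevenly. RELB, the partner used by the slower, non-canonical arm, read 2.11, 1.91 and 2.24 in untreated cells and 17.6, 18.3 and 18.1 after IL-1β (log2 change 2.62 ± 0.073, limma adjusted p = 1.22e-10). NFKB2, its precursor partner, went from 12.5 ± 1.3 to 48 ± 1.42. RELA, the main subunit of the fast arm, rose less, from 25.3 ± 0.518 to 34.4 ± 3.22, so the RELB to RELA ratio within a library went from 0.0821 ± 0.00489 to 0.526 ± 0.0445. The inhibitor gene NFKBIA and its relative NFKBIZ, both NF-κB targets, rose to 122 ± 1.6 and 24.2 ± 1.2 from 26 ± 0.688 and 3.1 ± 0.145. In total 13 of 17 members were higher and 1 was lower. The lower one, MAP3K14, named after its values were seen, encodes the kinase NIK that starts the non-canonical arm, and it fell from 9.65, 10.4 and 9.66 to 4.0, 4.18 and 3.74.

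Of 20 tested genes of NF-κB feedback and other NF-κB targets 19 were higher and none was lower, and 2 had passed the filter only through treated libraries. ZC3H12A, an RNase that degrades cytokine messages, went from 4.08 ± 0.502 to 59.2 ± 2.6. BIRC3, a ubiquitin ligase that restrains NIK, went from 0.407 ± 0.109 to 14.7 ± 0.349, and TNFAIP3, which encodes the deubiquitinase A20, went from 2.09 ± 0.64 to 24.9 ± 3.46. Most of the remaining increases were small, since the median log2 change of the list was 0.66. Among adhesion molecules ICAM1 rose from 0.336 ± 0.192 to 14.7 ± 1.0. VCAM1 was below the filter and was not tested, with 0 in all 3 untreated libraries and 0.17, 0.196 and 0.14 after IL-1β. In the TNF superfamily the TNF receptor TNFRSF1B rose from 2.35 ± 0.439 to 19.2 ± 0.293, and the neurotrophin receptor NGFR fell from 4.68 ± 0.154 to 1.01 ± 0.0127.

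Interferon-stimulated antiviral genes rose without exception among the members tested. All 44 rose, 33 of them at least 2-fold, with a median log2 change of 1.29, and 7 of them had passed the filter only through treated libraries. IFI27 read 2.73, 2.48 and 2.58 in untreated cells and 146, 144 and 151 after IL-1β, a log2 change of 5.36 ± 0.34 (limma adjusted p = 2.42e-07). IFI6, already present at 62.6 ± 2.13, reached 667 ± 79.7, and ISG15, a ubiquitin-like protein, went from 27.4 ± 2.98 to 201 ± 9.31. The membrane tether BST2 went from 0.941 ± 0.149 to 31.8 ± 4.82, and IFITM1, which blocks viral fusion, from 3.53 ± 1.22 to 68.6 ± 5.06. The groups did not overlap in any of the 44 genes, against 52.8% of all tested genes without overlap. The interferon genes IFNB1 and IFNL1 were listed at 0 in all 6 libraries.

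Interferon-stimulated genes are known to carry an interferon-stimulated response element, so promoters were searched for its core letters GAAANNGAA on either strand. The windows below come from the strongly induced members of the list.

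IFI27 (chr14:94110626-94110664, + strand): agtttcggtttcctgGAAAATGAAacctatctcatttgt
BST2 (chr19:17405737-17405775, - strand): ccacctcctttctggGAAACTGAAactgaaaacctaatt
IFI6 (chr1:27672325-27672363, - strand): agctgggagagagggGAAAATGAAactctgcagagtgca
IFI6, second match (chr1:27672284-27672322, - strand): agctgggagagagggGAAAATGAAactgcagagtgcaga
ISG15 (chr1:1013375-1013413, + strand): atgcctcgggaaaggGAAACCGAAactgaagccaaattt
IFIT1 (chr10:89392493-89392531, + strand): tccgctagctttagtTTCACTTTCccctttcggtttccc

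In IFIT1 the capitals are the reverse complement of the motif. The core was present in 6.48% of all promoters, in 38% of those of genes at least 4-fold higher, in 27.1% of those of genes at least 2-fold higher and in 1.89% of those of genes at least 2-fold lower. Genes of the antiviral list are among those induced genes, so the shares and the list are not separate findings.

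The factors that read interferon signals rose with their targets, and 13 of 18 tested members were higher with none lower. IRF9, a DNA-binding factor of the interferon response, went from 15 ± 1.68 to 41.6 ± 2.02. IRF1, a factor known to be induced by both interferon and NF-κB, read 9.43, 8.98 and 9.83 untreated and 22.7, 22.9 and 24.2 after IL-1β. Its counterpart IRF2 rose less, and the IRF1 to IRF2 ratio went from 1.07 ± 0.0513 to 1.72 ± 0.0792. Cytosolic RNA sensors changed in the same direction, with IFIH1 at 2.09 before and 9.05 after IL-1β and DDX58 at 2.77 and 7.77.

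Genes that load peptides onto HLA class I rose by smaller factors from high starting levels. Of 19 tested members, 15 were higher and 1 was lower, with a median log2 change of 0.79. HLA-B went from 116, 133 and 135 to 328, 325 and 314. B2M, the invariant light chain, went from 853 ± 39 to 1471 ± 63.2, a gain of 618 units and among the 10 largest gains in level of any gene. TAPBP, which bridges the peptide transporter and class I, went from 44.6 ± 1.54 to 104 ± 3.34. HLA genes are polymorphic paralogs, so the split of reads between them is uncertain.

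The proteasome genes separated by type. All 5 genes of the immunoproteasome, the form that favours peptides for class I, rose, and their median log2 change was 0.90. Only 3 of 33 genes of the constitutive proteasome were called, all higher, with a median of 0.04. PSMB9 went from 15.4 ± 1.76 to 34.3 ± 1.26 while the subunit it replaces, PSMB6, stood at 151 ± 3.63 and 150 ± 4.25 and was not called (limma adjusted p = 0.91). The PSMB9 to PSMB6 ratio was 0.0934, 0.0996 and 0.112 in untreated libraries and 0.221, 0.231 and 0.233 after IL-1β. The ratio PSMB10 to PSMB7 went from 0.117 ± 0.0152 to 0.211 ± 0.00317. Each ratio stayed below 1, so the constitutive subunit remained the more abundant transcript in every library.

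**Figure D3:**
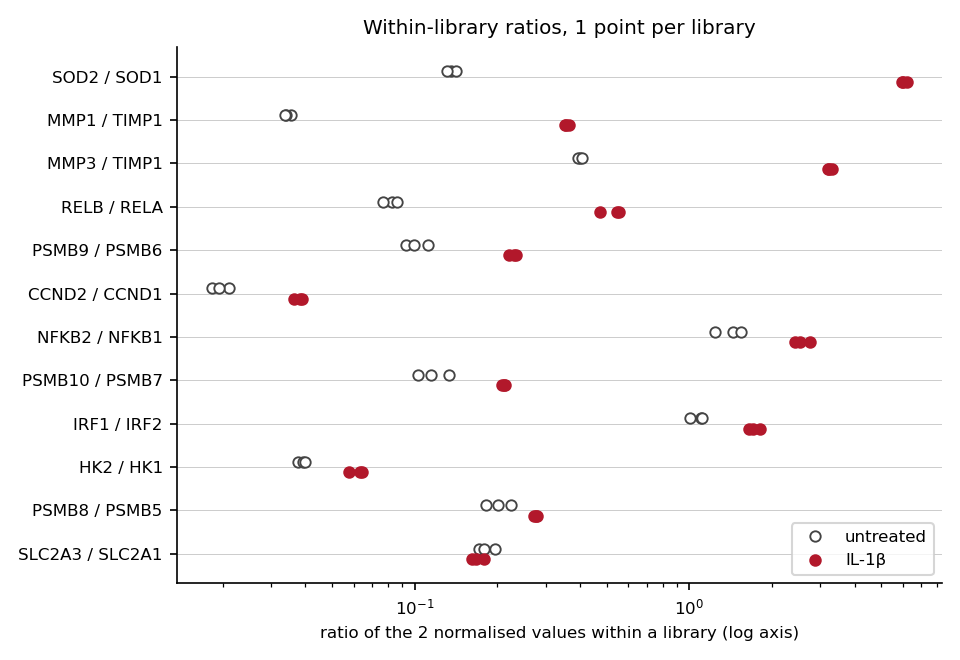
Ratio of paired genes within each library (log axis) for 12 pairs, untreated as open and IL-1β as filled circles. The SOD2 to SOD1, MMP1 to TIMP1, MMP3 to TIMP1 and RELB to RELA ratios move farthest to the right, and only SLC2A3 to SLC2A1 overlaps between the groups.

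Acute phase and complement genes rose in 12 of 21 tested cases and fell in 3, and 3 of the 21 had passed the filter only through treated libraries. C3, the central complement component, read 0.926, 0.24 and 0.266 in untreated cells and 75.0, 71.1 and 75.3 after IL-1β, a log2 change of 5.69 ± 0.13 (limma adjusted p = 2.8e-11). CFB, which pairs with C3 in the alternative pathway, went from 0.688 ± 0.417 to 12.6 ± 1.68. SAA1 and SAA2, acute phase apolipoproteins, reached 65.6 ± 2.69 and 30.3 ± 1.09. Untreated replicate 1 was above the others in both, at 4.62 for SAA1 against 0.582 and 1.11, and at 3.35 for SAA2 against 0.469 and 0.18. Without that library the log2 changes of SAA1 and SAA2 were 5.19 and 4.57 in place of 4.65 and 4. The antimicrobial peptide gene DEFB4A and the secreted peptide gene FDCSP were listed at 0 in untreated cells and read 9.31, 12.2 and 6.09, and 9.45, 10.7 and 9.69, after IL-1β.

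The same untreated library decided the call of other defence genes, which are named here after their values were seen. S100A9, a subunit of the neutrophil protein calprotectin, read 16.3, 0.106 and 0 in untreated cells and 12, 10.2 and 11.7 after IL-1β, and LCN2, the siderophore-binding lipocalin, read 14.6, 0 and 0.13 and then 4.67, 4.73 and 3.98. With all libraries neither was called, at limma adjusted p = 0.0555 and 0.323. Without untreated replicate 1 both were higher, with log2 changes of 3.55 and 2.36 and limma adjusted p = 4.87e-08 and 7.58e-07. SLPI, a secreted protease inhibitor, read 27.9 in that library against 0.574 and 0.292, and the keratin KRT19, below the filter, 7.95 against 0.732 and 0.427. Whether this library differed in its cells or in its handling was not tested.

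Matrix metalloproteinases rose in 9 of 14 tested cases and fell in 3, and 2 of the 14 had passed the filter only through treated libraries. MMP13, the main collagenase of type II collagen, read 1.81, 2.08 and 2.53 without IL-1β and 84.4, 66.1 and 78.0 with it, a log2 change of 4.62 ± 0.16 (limma adjusted p = 8.06e-10). MMP12, an elastase, went from 2.37 ± 0.436 to 81.1 ± 0.676, and the collagenase MMP1 from 10.9 ± 0.296 to 131 ± 4.82. MMP3, a stromelysin that also activates other metalloproteinases, was by far the most abundant: it was at 120, 129 and 130 before and 1203, 1170 and 1211 after exposure. MMP7 and MMP10, on the same stretch of chromosome 11, reached 7.04 and 4.81.

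Their tissue inhibitors changed little beside them. TIMP1 was at 299, 329 and 321 in untreated cells and at 375, 362 and 364 after IL-1β and was not called (limma adjusted p = 0.0822), although the groups did not overlap and it was higher at 0.00253 when only these 6 libraries were fitted. TIMP2 fell by 0.19 on the log2 scale (limma adjusted p = 0.0153), a call that was lost without IL-1β replicate 1 or 3 or untreated replicate 3, and TIMP3 rose by 0.31. The transcript ratio of MMP3 to TIMP1 therefore went from 0.401, 0.393 and 0.406 to 3.21, 3.23 and 3.32, and that of MMP1 to TIMP1 from 0.0344 ± 0.000871 to 0.357 ± 0.00634. Levels of RNA do not give the amount or activity of the proteins.

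The aggrecanases behaved differently from the collagenases. ADAMTS4 and ADAMTS5, which cut aggrecan, were below the filter in these cells, with values of at most 0.023 and 0.344 in the 6 libraries. Of 14 tested ADAM and ADAMTS genes 6 rose and 1 fell, and the largest change on the log2(value + 1) scale was that of ADAMTS6, from 1.37 to 3.92. Among the cathepsins, lysosomal proteases, CTSS rose from 2.68 ± 0.136 to 34.4 ± 1.55, and the median change of the 13 genes was 0.03. SERPINB2, the plasminogen activator inhibitor of type 2, read 3.92, 3.33 and 2.89 in untreated cells and 240, 230 and 248 after IL-1β. PI3, which encodes the elastase inhibitor elafin, read 1.38, 0 and 0 before and 23.9, 20.8 and 20.4 after IL-1β, a log2 change of 4.09 that was 4.5 without untreated replicate 1.

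Matrix genes were mixed, with no shared direction. Among small proteoglycans and matrix glycoproteins 10 of 37 rose and 12 fell. DCN and LUM, proteoglycans that organise collagen fibrils, were at 11.8 ± 1.27 and 32.5 ± 1.85 in untreated cells and at 128 ± 2.6 and 180 ± 3.35 after IL-1β. FN1, fibronectin, went from 763 ± 38.8 to 1337 ± 13.1. Among collagens 7 of 22 rose and 6 fell. COL7A1, the anchoring fibril collagen, went from 19.8 ± 3.1 to 73.4 ± 3.44, and COL10A1, a marker of hypertrophic cartilage, from 2.09, 5.02 and 1.80 to 10.2, 11.2 and 13.3. The collagen-modifying enzymes PLOD2, P4HA2 and LOX rose from 83.2 to 286, from 46.7 to 109 and from 135 to 304.

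Few genes of the cartilage list could be tested, since 19 of 27 were below the filter. Of the 8 tested, 3 rose and 4 fell, and 2 had passed the filter only through treated libraries. SOX9 read 11.8, 11.5 and 12.8 before and 8.60, 9.23 and 8.58 after IL-1β (log2 change -0.41 ± 0.073, limma adjusted p = 0.00114). HAPLN1, the link protein that ties aggrecan to hyaluronan, fell from 2.27 ± 0.577 to 0.518 ± 0.122. ACAN, the aggrecan core protein, went the other way, from 0.501 ± 0.0503 to 1.42 ± 0.201, at levels close to the filter. Hyaluronan genes included a strong rise of HAS2, a synthase, from 2.4 ± 0.228 to 12.3 ± 0.348, and of TNFAIP6, which crosslinks hyaluronan, from 0.953 ± 0.306 to 9.86 ± 1.66.

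Metal-binding and redox genes showed the largest gains in absolute level. FTH1, the ferritin heavy chain that stores iron, was the most abundant transcript and gained 3809 units, from 12309, 11274 and 13078 to 15704, 16787 and 15596 (limma adjusted p = 0.0024, or 0.0701 when no filter on low values was used). FTL, the light chain of the same shell, stood at 5697 ± 348 and 5051 ± 128 and was not called (limma adjusted p = 0.104), but it was lower at 0.0275 when only the 6 libraries compared were fitted. MT2A, a metallothionein that buffers zinc and copper, gained 3157 units, from 882, 957 and 951 to 4117, 4175 and 3969, and MT1X gained 844. Of 13 tested metallothionein and zinc genes 10 rose and 1 fell, and 3 had passed the filter only through treated libraries. SLC39A14, an importer of zinc and iron known to respond to IL-6 and IL-1, went from 75.5 ± 1.16 to 307 ± 10.7. The metallothioneins are near-identical copies, so their separate values are uncertain.

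Antioxidant genes did not move together, with 10 of 28 higher and 12 lower. SOD2, the mitochondrial superoxide dismutase and a classical NF-κB target, read 36.8, 35.7 and 34.6 untreated and 1333, 1335 and 1307 after IL-1β, a log2 change of 5.17 ± 0.049 (limma adjusted p = 6.46e-15). The cytosolic SOD1 fell from 262 to 219, and the SOD2 to SOD1 ratio went from 0.137 ± 0.00539 to 6.05 ± 0.147. NQO1, a textbook NRF2 target, fell from 602 ± 12.1 to 364 ± 6.03, while HMOX1, heme oxygenase and another NRF2 target, rose from 46.1 ± 0.399 to 89.1 ± 1.21. The aldo-keto reductases AKR1B1 and AKR1B10, neighbours on chromosome 7, went in opposite directions: AKR1B1 rose from 504 ± 36.3 to 1496 ± 26.3 and AKR1B10 fell from 35.1 ± 3.05 to 12.8 ± 0.272.

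Of 12 genes of prostaglandin, leukotriene and nitric oxide synthesis 6 were higher and 2 lower, and 2 had passed the filter only through treated libraries. The constitutive cyclooxygenase gene PTGS1, named after its values were seen, fell from 3.12 to 1.67. PTGS2, the inducible cyclooxygenase COX-2, went from 1.07, 0.765 and 0.676 to 7.92, 7.43 and 7.94, and PTGES, the enzyme that follows it, from 0.675 ± 0.212 to 4.25 ± 0.155. NOS2, the inducible nitric oxide synthase, was below the filter in all 6 libraries at no more than 0.213. BCL2A1, an anti-apoptotic NF-κB target, went from 0.205 ± 0.156 to 4.75 ± 0.256 and the pro-apoptotic BID from 9.56 ± 0.556 to 21.2 ± 0.519. Of 23 BCL2 family and death genes, a list of pro- and anti-apoptotic members, 13 rose and 2 fell, among the latter the anti-apoptotic BCL2L1 (named after its values were seen) from 62.7 to 43.7.

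In the list of AP-1 and immediate early factors, which also holds C/EBP, EGR, KLF and ETS factors, 14 of 24 tested genes rose and 3 fell. CEBPB and CEBPD, factors that act with NF-κB on acute phase genes, went from 37.8 ± 1.74 to 132 ± 2.85 and from 10.9 ± 1.66 to 44.4 ± 3.08. EHF, an epithelial ETS factor, went from 0.559 to 5.10, and MAFF, a small MAF protein, from 2.90 to 11.3. The 3 that fell, named after their values were seen, were KLF2 from 14.7 to 6.47, EGR1 from 5.7 to 2.44 and the AP-1 subunit gene FOSL1 from 92.6 to 74.2. C15orf48, a small mitochondrial protein gene outside every list, was among the 15 largest increases, from 2.37 ± 0.579 to 140 ± 7.06.

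The largest falls were smaller and came from scattered pathways. LGR5, the R-spondin receptor that amplifies Wnt signals, read 12.7, 12.9 and 11 in untreated cells and 1.44, 1.34 and 1.05 after IL-1β, a log2 change of -2.54 ± 0.092 (limma adjusted p = 1.54e-09). BMP4, a bone morphogenetic protein, fell from 37.2, 36.1 and 40.9 to 9.19, 7.59 and 7.94. Its relative BMP2 rose from 1.29 ± 0.218 to 5.87 ± 0.444 and the activin subunit gene INHBA from 7.7 ± 0.651 to 26.8 ± 1.11, so members of this ligand family moved in opposite directions. CRYGS, a crystallin, and NANOS1, a translational repressor, fell by 2.02 and 1.90 on the log2 scale.

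Of 27 tested Wnt genes 5 rose, 8 fell and 14 were not called, against 16.2% and 16% over all genes. The Notch and Hedgehog list had 4 higher and 3 lower genes of 11. TCF7, a transcription factor of the pathway, went from 16.1 ± 1.21 to 6.52 ± 0.22, SFRP1, a secreted Wnt antagonist, from 10.1 ± 0.338 to 4.47 ± 0.255, and CTNNB1, which encodes β-catenin, was not called at 115 and 109. HHIP, a Hedgehog-binding protein and target, fell from 3.45 to 0.994, and SMO, the Hedgehog signal transducer, from 13 to 7.68. The Notch ligand gene JAG1 rose from 1.95 to 3.35 and the Notch-modifying LFNG from 16.7 to 24.7, both named after their values were seen.

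Some targets of YAP and of actin-linked transcription fell strongly, and others were not called. CTGF, a matricellular protein, read 62.7, 58.1 and 55.8 untreated and 15.7, 16.8 and 16.4 after IL-1β. ANKRD1, a muscle ankyrin repeat protein, fell from 75.9 ± 9.08 to 24.4 ± 0.238, and WWTR1, which encodes the YAP partner TAZ, from 29.8 ± 2.09 to 17 ± 0.367. CYR61, a CTGF relative and also a YAP target, stood at 254 ± 16.3 and 270 ± 3.73 and was not called (limma adjusted p = 0.544). The list held 7 lower genes and 1 higher gene of 17 tested. Among 25 actin and contractile genes 9 fell and 1 rose. ACTA2, smooth muscle actin, fell from 141 ± 3.46 to 59.5 ± 0.821, while ACTB stood at 6288 ± 255 and 6316 ± 76.4. The LIM protein gene FHL1 dropped by 411 units, from 647 ± 26.9 to 237 ± 1.93, the largest loss of any called gene.

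The lists of growth factor genes and of receptor tyrosine kinase genes differed in their counts. The growth factor list also holds IGFBP genes, STC1, STC2 and ESM1, and the receptor list is not limited to receptors for its members. Of 24 tested genes of the growth factor list 11 were higher and 7 lower, with a median log2 change of 0.16. Of 20 receptor tyrosine kinase genes 11 were lower and 3 higher, though none changed 2-fold, and PDGFRA showed the largest fall, from 10.5 ± 1.07 to 5.86 ± 0.675. Of 17 genes that respond to or restrain ERK signalling 9 fell and 2 rose. ETV1, an ETS factor of that group, read 8.01, 8.11 and 11 before and 1.98, 1.89 and 1.75 after IL-1β. IER3, which is also an NF-κB target, was the opposite extreme of the list, from 0.956 ± 0.261 to 37.7 ± 0.598. The thrombin receptor gene F2R and RGS4, which damps signals from such receptors, fell from 55.3 ± 0.519 to 19.5 ± 0.536 and from 58.3 ± 3.71 to 20.5 ± 1.62, and the cyclic GMP phosphodiesterase PDE5A from 54.4 ± 2.09 to 15.7 ± 0.108.

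Genes of DNA replication and the G1/S transition fell modestly, and no gene of the mitosis list was lower. Of 32 tested G1/S genes 14 were lower and none higher, with a median log2 change of -0.26. CCND1, the cyclin that starts G1, read 70.2, 70.5 and 69.4 untreated and 36.1, 36.4 and 34.2 after IL-1β (log2 change -0.96 ± 0.14, limma adjusted p = 0.000313). CCNE2, a later cyclin, went from 8.0 ± 0.811 to 4.78 ± 0.0947 and the helicase subunit MCM6 from 22.5 to 15.1. Of 24 mitosis genes 4 were higher, near the share of 16.2% over all genes, among them UBE2C at 69.9 ± 7.92 and 95.2 ± 2.32. The difference between these lists was not tested.

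Metabolic lists differed in direction. Glycolysis and hypoxia genes rose in 21 of 33 cases and fell in 1, with a median log2 change of 0.45. The glycolytic enzymes among them were mixed. HK1, HK2, PFKP, PGK1, PGAM1 and ENO2 rose and LDHB fell. GPI, PFKL, PFKM, ALDOA, ALDOC, TPI1, ENO1, PKM and LDHA were not called. SLC2A6, a hexose transporter of activated macrophages, went from 8.4 ± 0.656 to 24.2 ± 1.91, VEGFA, the angiogenic factor, from 49.2 ± 5.04 to 107 ± 1.51, and PFKFB4, a regulator of glycolysis, from 9.8 to 21, while GAPDH was not called at 4064 and 4386. Of 30 oxidative phosphorylation genes 13 fell and none rose, with a median of -0.17, and the largest fall was that of NDUFA1, from 145 to 115. Ribosomal protein genes had a median of -0.11, with 4 of 30 called, all lower, where 16% of all tested genes were lower.

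Genes of the ATF4 response and of the unfolded protein response rose, mostly by small amounts. Of 31 genes of the ATF4 response and the tRNA synthetases 25 were higher and none lower, with a median log2 change of 0.34. DDIT4, an inhibitor of mTORC1, went from 52.5 ± 3.54 to 116 ± 4.69. Of 32 endoplasmic reticulum chaperones and unfolded protein response genes 19 were higher and none lower, with a median of 0.18 and none at 2-fold. HSPA5, the chaperone BiP, rose from 236 ± 3.18 to 358 ± 3.6, and the factor XBP1 from 55.2 ± 3.63 to 84.8 ± 0.992. Of 21 heat shock chaperones, cytosolic and mitochondrial, 7 were lower, 2 higher and 12 not called, where 16% of all tested genes were lower and 16.2% higher. HSPB1 dropped by 323 units, from 1332 ± 30.8 to 1009 ± 21.6, and its relative CRYAB went from 20.1 ± 2.04 to 10.7 ± 1.81.

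Guidance molecules, nuclear receptors and clock genes changed in both directions. Of 26 guidance genes 9 were higher and 11 lower, and of 19 genes of the AHR pathway and nuclear receptors 7 were higher and 5 lower. The co-receptor gene NRP2 rose from 53.2 ± 1.16 to 113 ± 3.15, and NRP1 was not called. Among semaphorin genes SEMA3A fell from 2.03 ± 0.424 to 0.534 ± 0.1 and SEMA3C rose from 58.8 to 115. The nuclear receptor genes NR2F1 and PPARG fell from 7.48 ± 0.942 to 2.85 ± 0.11 and from 6.72 ± 0.527 to 3.8 ± 0.323. Of 16 clock genes 3 rose, 4 fell and 9 were not called, near the shares over all genes (16.2% and 16%). BHLHE40, a repressor of the loop, went from 21.7 ± 1.48 to 41.5 ± 0.95, and DBP, an output gene, from 20.2 ± 3.84 to 11.6 ± 0.782.

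**Figure D4:**
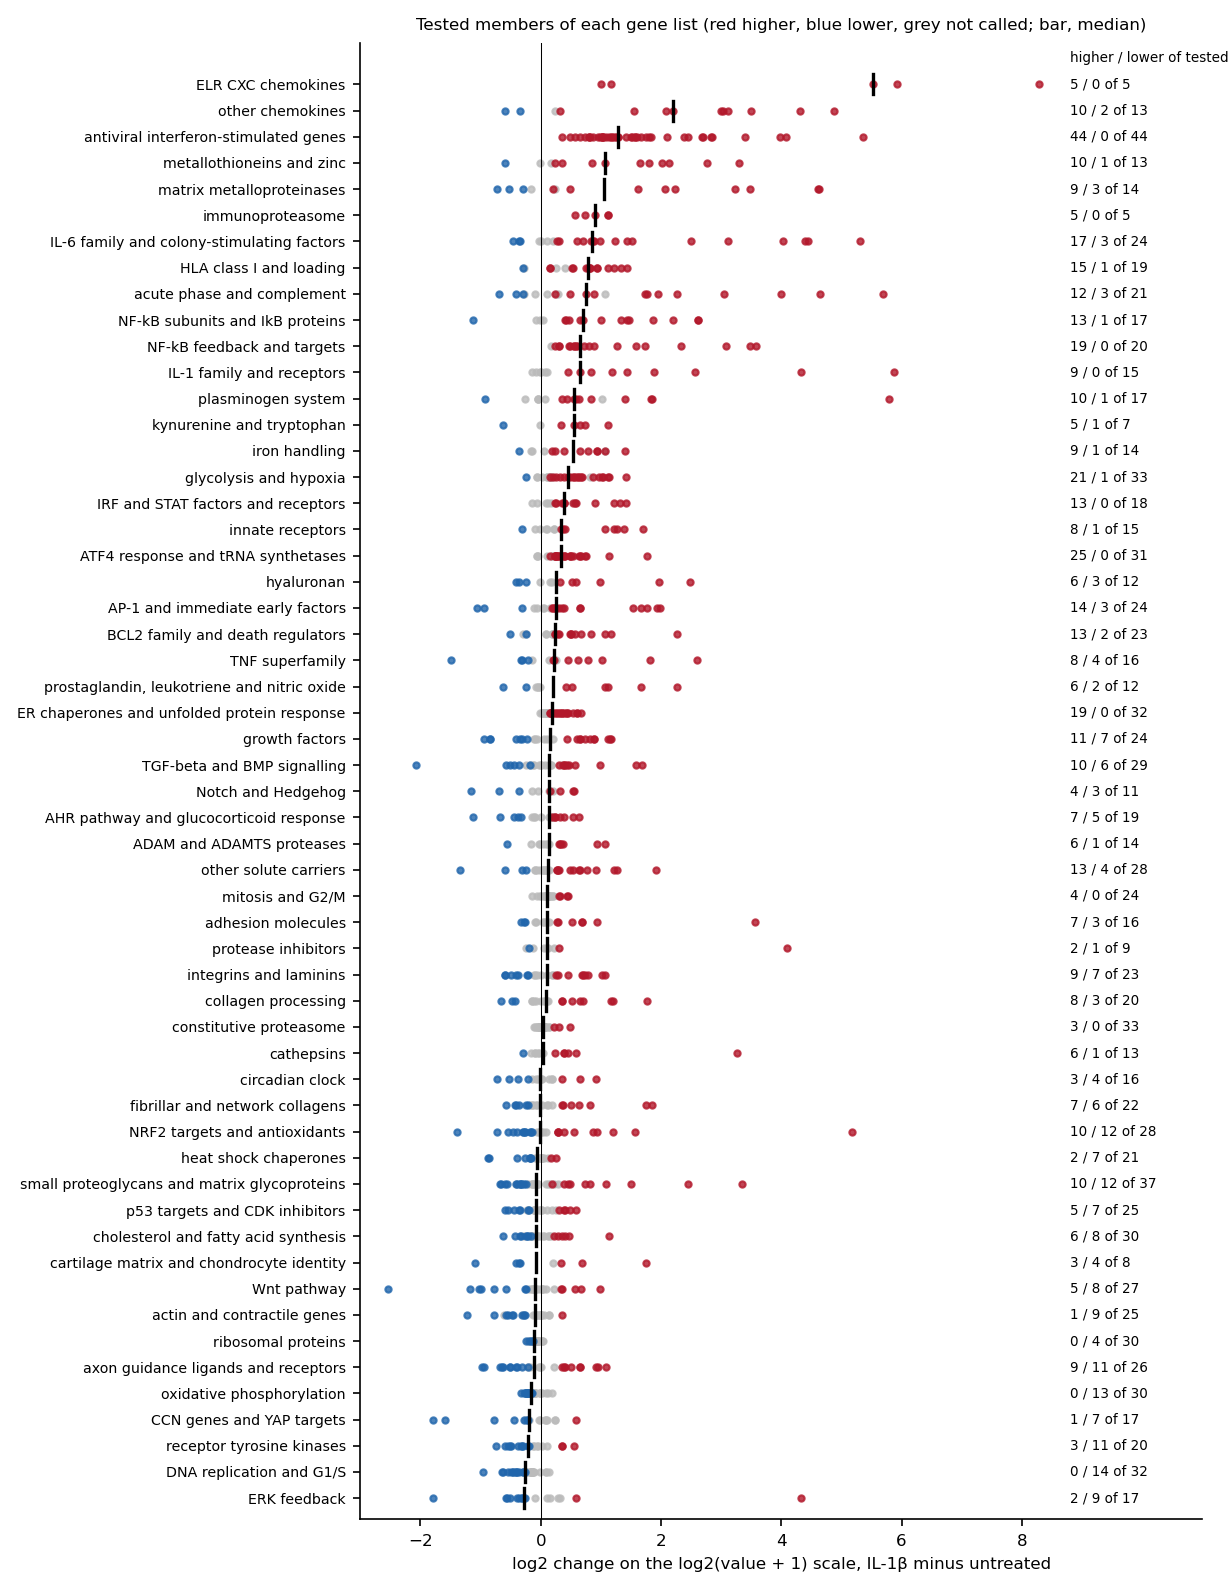
Log2 change on the log2(value + 1) scale of each tested member of the 55 gene lists, 1 point per gene, with the list's median as a black bar and its counts of higher and lower genes at the right. The chemokine and antiviral lists lie farthest to the right, and the G1/S and ERK feedback lists have the lowest medians.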

How the data were processed

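Per the labels' protocols, total RNA was made into directional mRNA-sequencing libraries with an MGI kit. The submitters' processing notes name Trim Galore, STAR, HTSeq and the build hg38. The deposited table holds 1 signal value per gene and library that the authors normalised before deposit; the values are not whole counts, and whether they are FPKM, RPKM or TPM is not given in the sources used here, nor is the treatment of multi-mapped reads, strand or overlapping genes.

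From these values, log2(value + 1) was tested with limma 3.58.1 (R 4.3.3), with a mean for each of the 3 groups, all 9 libraries and a variance trend. This left 6 residual degrees of freedom. A gene was tested where 3 or more libraries reached a value of 1, and p-values were adjusted by the Benjamini-Hochberg method. An exact permutation test of 3 against 3 libraries cannot give p below 0.1. The script was tested on simulated data. Positions came from GENCODE 29 and promoter sequences from RefSeq (9518 genes matched by symbol).

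The 55 gene lists, which matched 1344 genes of the table (1116 tested), and the other choices were made with earlier results of these data known. They are described by counts and medians only. Named genes were the 15 largest increases and decreases, up to 4 called members and the most abundant member of each list, genes switched on from below 0.1, genes of the neighbour runs and paired genes, the 10 largest gains and losses in level, and a fixed set of joint disease genes. Others are marked as named after their values were seen. Deviations of libraries with equal replicate numbers were hardly correlated (0.038, 0.001 and -0.023). With 3 libraries per group this cannot settle whether equal numbers were cultured or processed together, which the labels do not say. Alternatives were another pseudocount, other filters, rescaling, fewer libraries, a replicate block, no variance trend, each library left out and, chosen after seeing the data, removal of length and GC trends.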

Additional observations from a re-analysis of the deposited data

How the results depend on the processing

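No gene called in the fit above was called in the opposite direction under any of the 14 alternatives, and all 4 counts stayed within 1.5 times their value in 13 of them. The exception was the pseudocount of 0.1, which raised the count of genes at least 2-fold lower from 65 to 149. With each library left out in turn the counts were 1505 to 1740 higher, 1430 to 1682 lower, 260 to 272 at least 2-fold higher and 60 to 76 at least 2-fold lower. The replicate block, a paired analysis by number, gave 1781 higher and 1698 lower genes and added the call of S100A9. Fitting only the 6 untreated and IL-1β libraries gave 2407 higher and 2530 lower genes, against 1928 and 1903 with all 9. The share of genes called thus depends on whether the PBSL libraries enter the fit. Removing length and GC trends, an alternative chosen after seeing the data, gave 1953 and 2760. Small changes near 0 had no stable sign: ACTB, at 0.01, was -0.05 with those trends removed and between -0.02 and 0.03 with a library left out (-0.02 without untreated replicate 3, -0.00 without IL-1β replicate 1), and PSMB6, at -0.01, was between -0.03 and 0.01 (0.01 without IL-1β replicate 3, 0.00 without untreated replicate 3). SLPI, at -0.24, was 0.29 with the pseudocount of 0.1, between -1.03 and 1.21 with a library left out, and 1.21 without untreated replicate 1. Calls of COL1A1, FTH1, IL11RA and TIMP2 were lost, and calls of CD3D, FTL, IRAK1, LCN2, S100A9 and TIMP1 gained, in 1 to 4 alternatives each. The number of libraries and the unknown read depth limit what can be said of genes at values near 1.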

Other observations

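A few genes that commonly accompany the responses described above were hardly detected, and their values are given without explanation. IRF7, a factor that amplifies interferon responses and is itself an interferon-stimulated gene, read 0.089, 0 and 0 in untreated cells and 0 in all 3 IL-1β libraries, while all 44 tested antiviral genes rose. PLAU, which encodes the urokinase plasminogen activator, was below the filter at 0.915 in untreated cells and 0.505 after IL-1β, beside the rise of SERPINB2 from 3.38 to 240. MT1E and MT1M, metallothioneins of the same chromosome 16 cluster as MT2A, did not exceed 0.491 and 0 in any of the 6 libraries, and CXCL2 did not exceed 0.105 beside CXCL3 at 68.1. The decoy receptor IL1R2, the complement genes C4A and C4B and the cell adhesion gene SELE were also below the filter. A value at or near 0 in this table can reflect how reads were assigned between similar or overlapping genes as well as a lack of RNA, and which applies was not tested.

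Untreated replicate 1 held 16 genes whose value + 1 lay at least 2-fold away from both other untreated libraries, 13 above and 3 below. Among those above were CSTA at 7.38 against 0.564 and 0.544, SERPINB3 at 7.98 against 0.074 and 0.071, and CDK10 at 56.2 against 14.1 and 11.9. For LCN2, S100A9 and SLPI the untreated replicate 1 value was above all 3 IL-1β values, at 14.6, 16.3 and 27.9. The same held for CSTA, SERPINB3, CDK10, CXCR4 and TSPAN1.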
